A study of Arabidopsis thaliana with 6 samples.

Results

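The 35 loci described here are those of an Arabidopsis root array whose annotation contains the words "leucine-rich repeat protein kinase", out of 32627 loci measured. The members were chosen by that wording alone, but the phrase itself was proposed with the OBP4-minus-control differences of these arrays already known. Every count of changed members below is therefore a description of the list and is not evidence about it. Transcripts were measured on 6 one-colour NimbleGen arrays, 3 from roots of pER8::OBP4 seedlings and 3 from roots of pER8::GFP seedlings, which serve as the control. OBP4 is a DOF transcription factor, a plant protein that binds DNA through a single zinc finger. In both lines pER8 is an estradiol-inducible promoter system, and seedlings of both lines were 5 days old when they were moved to 10 µM estradiol for 8 h. The labels give separate culture plates for each replicate and do not say how many independent transgenic lines were used. No array without estradiol was analysed here, so differences between the lines that precede induction cannot be told apart from effects of OBP4 overexpression. In whole roots, fewer cells of a type and less transcript per cell cannot be told apart either.

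Leucine-rich repeat protein kinases are receptor-like proteins of the plant cell surface. Their repeats lie outside the cell and bind peptides, steroids or partner receptors, and a kinase domain inside the cell passes the signal on, often together with a co-receptor of the SERK family. In roots, members of the wider family act in immunity, meristem upkeep, vascular development and the growth of root hairs. Many of these genes lie in tandem arrays of close copies on the chromosomes. One large subfamily carries a malectin-like domain beside the repeats, and IOS1, RHS6, RHS16, MEE39 and FRK1, which are named below, belong to it.

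OBP4 (AT5G60850) stood at 15.74, 15.83 and 15.86 on the log2 scale in the OBP4 arrays, against 14.37, 14.78 and 14.48 in the control arrays, so every array followed its label. Transgene and endogenous OBP4 are not told apart by these probes. Its values near 16 are at the top of a 16-bit scanner's range. The difference of 1.27 ± 0.12 (SE) may therefore be compressed, which was not tested. Over all loci, arrays of the same group correlated at 0.982 to 0.995, and arrays of different groups at 0.970 to 0.985. All 6 markers fixed for root endodermis and stele (SCR, CASP1, MYB36, SHR, WOL and APL) gave signal, with array means of 13.82 to 13.91 in OBP4 roots and 13.85 to 13.91 in control roots. By limma 0 of the 6 passed, and at an unadjusted p under 0.05 1 was higher and 2 were lower. Shoot tissue was represented by 20 photosynthesis genes, and these varied among arrays of the same group. Their array mean was 13.97, 10.50 and 12.63 in OBP4 replicates 1 to 3, against 11.32, 11.16 and 12.28 in control replicates 1 to 3.

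Most members were lower in OBP4 roots. Of the 35, 22 fell, 1 rose and 12 did not pass the threshold, which is an adjusted p under 0.05 from limma with Benjamini-Hochberg adjustment over all loci. Among all loci 8.48% passed as lower and 5.23% as higher. The median difference of the members was -1.24 on the log2 scale, against 0.02 over all loci, and 30 of the 35 differences were negative. A fall that passed the threshold and was of at least 1, which is a halving, was seen in 21 members, against 3.06% of all loci. All 3 OBP4 arrays lay below all 3 control arrays at 24 members, against 18.9% of all loci. These shares only restate the values with which the list was chosen. Each member was measured by 1 row of the array table, built from 4 probes at 26 members and from 3 at the other 9.

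**Figure D1:**
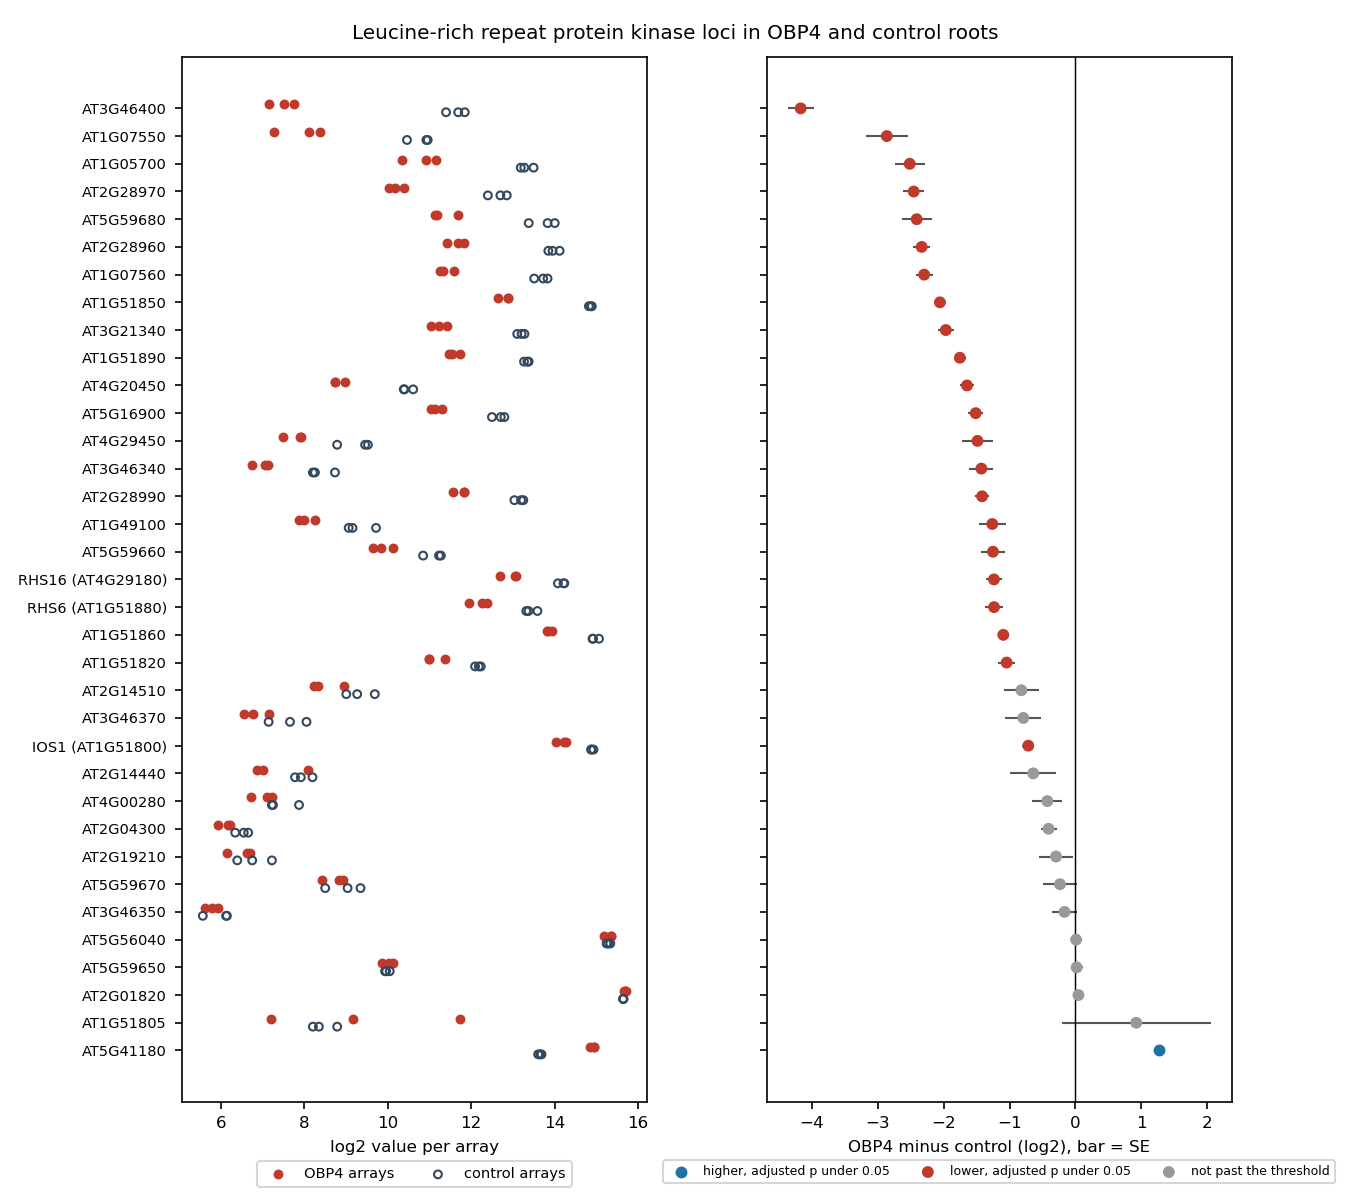
Log2 values of the 35 members in each array (left; filled red circles are OBP4 arrays, open circles control arrays) and the OBP4-minus-control difference with its standard error (right), ordered by the difference. The 22 lower members are red and their arrays do not overlap between groups; AT5G41180, at 1.27, is the 1 blue point.

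The 4 members described next have a name in the reference. AT1G51850, AT1G51805 and AT1G51820, which a fixed list calls SIF2, SIF3 and SIF4, are given by locus below. RHS6 (AT1G51880) and RHS16 (AT4G29180) are named root hair specific genes. RHS6 had 11.94, 12.27 and 12.37 in OBP4 roots, against 13.59, 13.32 and 13.37 in control roots. It fell by 1.24 ± 0.14 (SE), or 2.35-fold, and the arrays of the groups stood clear of each other. RHS16 had 13.07, 13.06 and 12.70 in OBP4 roots, against 14.22, 14.23 and 14.08 in control roots. It fell by 1.24 ± 0.12 (SE), the same size as RHS6, again with no overlap.

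IOS1 (AT1G51800) takes its name, impaired oomycete susceptibility, from its part in infection, and the protein acts with immune receptors. It had 14.02, 14.28 and 14.24 in OBP4 roots, against 14.89, 14.88 and 14.93 in control roots. It fell by 0.72 ± 0.09 (SE), the smallest change among the 22 lower members, although the groups did not overlap. AT5G56040, which the reference also calls SKM2, is a relative of the pollen tube receptor kinase SKM1. It had 15.36, 15.35 and 15.19 in OBP4 roots, against 15.25, 15.34 and 15.29 in control roots. The difference of 0.01 ± 0.07 (SE) did not pass, and its values lie near the top of the scanner's range.

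The furthest fall was at AT3G46400 (chromosome 3, 17073196 to 17077328, forward strand). All positions are those of the array annotation, and the sources used here do not name its genome build. Its values were 7.15, 7.76 and 7.53 in OBP4 roots, against 11.69, 11.40 and 11.85 in control roots. The difference was -4.17 ± 0.20 (SE), the 4th lowest of all 32627 loci. The OBP4 arrays lie in the dim part of the range, under 8, so the size of the fall is less exact than its direction. The same limit holds for 3 other lower members with an OBP4 mean under 8, AT1G07550, AT3G46340 and AT4G29450.

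Other lower members that stood alone on the chromosome were also apart in every array. AT1G05700 (chromosome 1, 1709796 to 1713245, forward strand) had 10.35, 10.92 and 11.16 in OBP4 roots, against 13.19, 13.27 and 13.50 in control roots. That is a difference of -2.51 ± 0.23 (SE), or 5.71-fold. AT3G21340 (chromosome 3, 7511787 to 7515937, reverse strand) averaged 11.23 ± 0.19 in OBP4 roots and 13.20 ± 0.09 in control roots (SD, n = 3 each), and fell by 1.97. AT4G20450 (chromosome 4, 11024054 to 11029008, reverse strand) averaged 8.82 ± 0.13 in OBP4 roots and 10.47 ± 0.13 in control roots, and fell by 1.65. AT5G16900 (chromosome 5, 5555254 to 5559715, forward strand) averaged 11.16 ± 0.13 in OBP4 roots and 12.67 ± 0.15 in control roots, and fell by 1.51. None of these 4 loci has another member within 20 kb.

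Of the 35 members, 19 lay in 5 runs of neighbours, in which each member starts within 20 kb of the next, and 16 stood alone. The longest run held 7 members on chromosome 1, IOS1 to AT1G51890 (19214148 to 19278528, 64.4 kb), and 6 of them fell. AT1G51850 had 12.65, 12.88 and 12.88 in OBP4 roots, against 14.87, 14.82 and 14.89 in control roots, and fell by 2.06 ± 0.09 (SE). AT1G51890 had 11.47, 11.54 and 11.73 in OBP4 roots, against 13.27, 13.38 and 13.35 in control roots, and fell by 1.75 ± 0.09 (SE). Both are among the most even members within their groups, with SDs of 0.04 to 0.13. AT1G51860 had 13.94, 13.85 and 13.82 in OBP4 roots, against 14.92, 14.91 and 15.06 in control roots, and was 2.14-fold lower. AT1G51820 averaged 11.13 ± 0.22 in OBP4 roots and 12.17 ± 0.07 in control roots (SD, n = 3 each), and fell by 1.04. With IOS1 and RHS6, differences of the 6 thus spanned -2.06 to -0.72.

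AT1G51805 was the 1 member of that run that did not pass. It had 11.74, 7.20 and 9.18 in OBP4 replicates 1 to 3, against 8.79, 8.21 and 8.35 in control roots. Its OBP4 arrays spread on both sides of the control arrays, with an SD of 2.27 against 0.30 in control roots. The OBP4 replicates took the same order in the shoot marker mean given above, with replicate 1 highest and replicate 2 lowest. The control replicates did not. Both were lowest in control replicate 2, but AT1G51805 was highest in control replicate 1 and the shoot marker mean in control replicate 3. The AT1G51805 difference of 0.92 ± 1.13 (SE) turned to -0.26 without OBP4 replicate 1 and was 2.01 without OBP4 replicate 2. FLS2 and ER, 2 receptors of a list described below, were picked after their values were seen. They were also highest in OBP4 replicate 1, but among OBP4 arrays FLS2 was lowest in replicate 2 and ER in replicate 3. FLS2, the flagellin receptor, had 9.78, 7.74 and 8.78 in OBP4 roots, against 7.08, 8.08 and 7.14 in control roots. ER, the ERECTA receptor of shoot growth, had 11.82, 9.92 and 9.80 in OBP4 roots, against 9.25, 9.29 and 9.61 in control roots. Of the 20 shoot markers 0 passed by limma, also 0 at an unadjusted p under 0.05. Their median difference was 0.81, and 1 of the 20 differences was negative. Their spread was wide, with a median SD of 1.51 in OBP4 roots and 0.81 in control roots. The part of shoot tissue in the values of these loci was not tested.

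**Figure D2:**
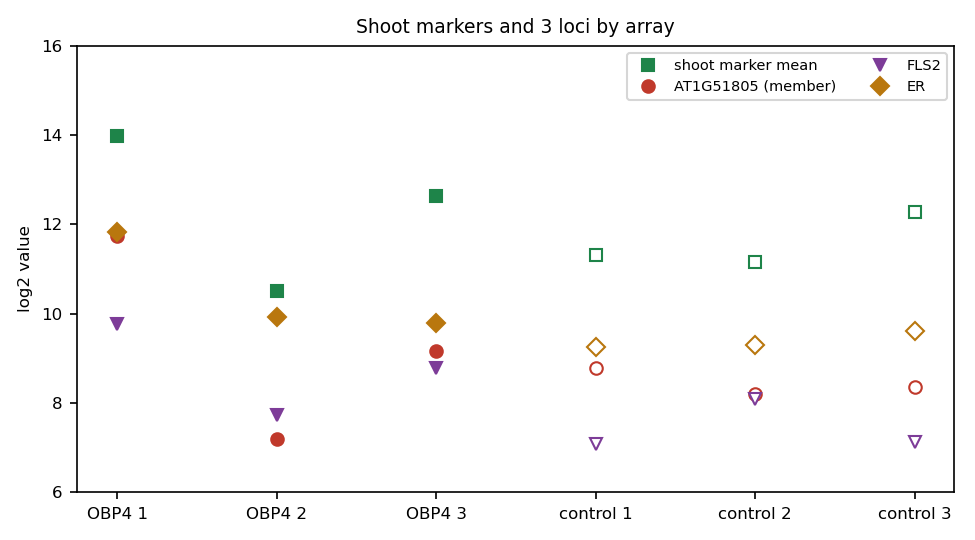
Log2 values of AT1G51805, FLS2 and ER and the mean of the 20 shoot markers in each array (filled symbols OBP4, open symbols control). AT1G51805 stands at 11.74 in OBP4 replicate 1 and at 7.20 in OBP4 replicate 2, the arrays with the highest and the lowest shoot marker mean. Among control arrays AT1G51805 is highest in replicate 1 and the shoot marker mean in replicate 3.

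On chromosome 2 all 3 members of the run AT2G28960 to AT2G28990 (12437914 to 12459541) fell. AT2G28960 had 11.43, 11.68 and 11.83 in OBP4 roots, against 13.95, 13.85 and 14.12 in control roots, and fell by 2.33 ± 0.13 (SE). AT2G28970 had 10.02, 10.17 and 10.40 in OBP4 roots, against 12.85, 12.40 and 12.70 in control roots, and fell by 2.45 ± 0.16 (SE). AT2G28990 averaged 11.75 ± 0.16 in OBP4 roots and 13.16 ± 0.11 in control roots (SD, n = 3 each) and fell by 1.42. The gaps between the nearest arrays of the groups exceeded 1 at all 3 loci.

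On chromosome 1 the adjacent pair AT1G07550 and AT1G07560 (2322653 to 2331096), which are annotated on opposite strands, fell too. AT1G07550 had 8.10, 7.29 and 8.38 in OBP4 roots, against 10.46, 10.96 and 10.93 in control roots, with a difference of -2.86 ± 0.32 (SE). AT1G07560 had 11.33, 11.27 and 11.59 in OBP4 roots, against 13.51, 13.73 and 13.83 in control roots, with a difference of -2.30 ± 0.13 (SE). The groups stood apart at both loci.

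Members of the remaining runs differed among themselves. On chromosome 5 the run AT5G59650 to AT5G59680 (24031346 to 24050801) alternated between loci that fell and loci that did not pass. AT5G59680 averaged 11.33 ± 0.31 in OBP4 roots and 13.74 ± 0.32 in control roots (SD, n = 3 each), and fell by 2.41. AT5G59660 had 10.13, 9.83 and 9.64 in OBP4 roots, against 11.28, 10.85 and 11.23 in control roots, and fell by 1.25 ± 0.18 (SE). AT5G59650 had 10.12, 10.02 and 9.86 in OBP4 roots, against 10.05, 9.94 and 9.96 in control roots, a difference of 0.02 ± 0.09 (SE). AT5G59670 averaged 8.73 ± 0.27 in OBP4 roots and 8.96 ± 0.43 in control roots (SD, n = 3 each), with overlapping arrays. On chromosome 3, in the run AT3G46340 to AT3G46370, AT3G46340 fell to 6.97 ± 0.20 in OBP4 roots, against 8.40 ± 0.29 in control roots (SD, n = 3 each). Its neighbours AT3G46350 and AT3G46370 did not pass and had means under 8 in both groups. Whether neighbouring loci moved separately was not tested. Probe sequences were not used here, so signal shared between close copies was not tested either.

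The array annotation names other kinase loci beside the members that the phrase does not match. Of 26 such loci within 20 kb of a member, 10 fell, 4 rose and 12 did not pass. Among all loci 8.48% were lower and 5.23% higher. The 26 were taken by the word kinase alone. They include the phosphofructokinase gene PFK1, the histidine kinase gene WOL and pseudogenes such as AT3G46384. Within 20 kb of the members of the 64.4 kb run on chromosome 1 there were 6, of which AT1G51790, AT1G51830, AT1G51840 and AT1G51870 fell, while AT1G51810 and AT1G51910 did not pass. AT1G51870 had 8.46, 8.76 and 9.22 in OBP4 roots, against 11.26, 10.78 and 11.14 in control roots, a difference of -2.25 ± 0.23 (SE). AT1G51810 and AT1G51910 had OBP4 means of 6.11 and 6.14, in the dim part of the range. On chromosome 3 the malectin-type kinase gene MEE39, named for arrested embryos in its mutant, had 8.08, 8.04 and 8.68 in OBP4 roots, against 10.84, 10.99 and 11.15 in control roots. Its difference was -2.73 ± 0.20 (SE), and its neighbour AT3G46340 is a member.

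FRK1 was among the 4 neighbouring kinase loci that rose. FRK1 (AT2G19190), a kinase gene induced by flagellin and used as a marker of immune signalling, had 13.37, 13.36 and 13.16 in OBP4 roots, against 10.05, 10.48 and 10.25 in control roots. It rose by 3.04 ± 0.13 (SE). The member AT2G19210, which lies within 20 kb of it, had 6.64, 6.70 and 6.16 in OBP4 roots, against 6.75, 6.40 and 7.23 in control roots. Its arrays overlapped and were dim in both groups. The difference between neighbours was not tested.

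**Figure D3:**
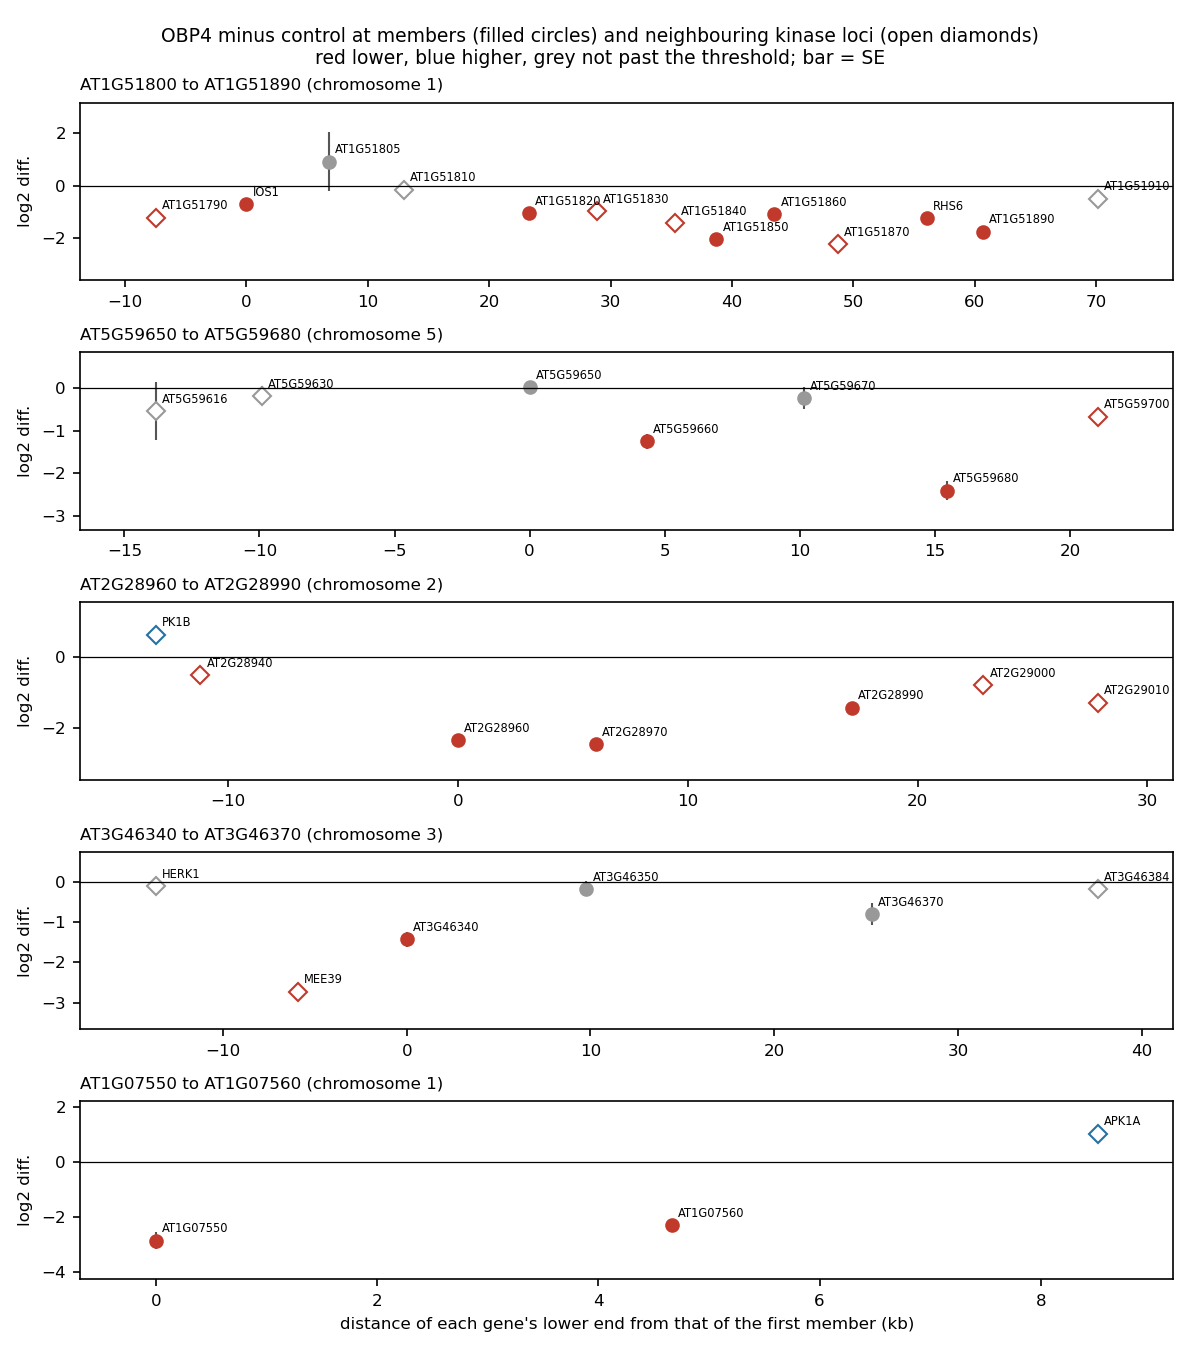
OBP4-minus-control difference (log2, with standard error) of members (filled circles) and other kinase loci within 20 kb (open diamonds) along each of the 5 runs, by distance in kb from the first member. In the run of 7 members on chromosome 1, 6 members and 4 of 6 neighbours are lower, and AT1G51805 has the long error bar.

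AT5G41180 (chromosome 5, 16483871 to 16487426, forward strand) was the 1 member that rose. It had 14.86, 14.95 and 14.95 in OBP4 roots, against 13.69, 13.61 and 13.65 in control roots. The difference was 1.27 ± 0.06 (SE), or 2.42-fold, and the spread within each group was an SD of 0.05 in OBP4 roots and 0.04 in control roots. It is a single locus with no other member within 20 kb.

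The 12 members that did not pass differed in how well they could be measured. Means over all arrays were under 8 at 7 members, and 1 of these, AT3G46340, fell. The other 6 were AT2G04300, AT2G14440, AT2G19210, AT3G46350, AT3G46370 and AT4G00280, with differences of -0.17 to -0.79. Of all 9769 loci under that level 2.07% passed as lower, against 12.8% of the 19354 loci with means from 8 to under 15. AT4G00280 carries the phrase only because its annotation names AT2G19210 as the best protein match, and the annotation gives its own function as unknown. In the range of 8 to under 15, 21 of 26 members fell, 1 rose and 4 did not pass. These 4 were AT1G51805, AT5G59650, AT5G59670 and AT2G14510. AT2G14510 had 8.34, 8.23 and 8.95 in OBP4 roots, against 9.01, 9.27 and 9.69 in control roots, so that its groups were just apart, with a difference of -0.82 ± 0.26 (SE). The 2 members with means of 15 or more were AT2G01820 and AT5G56040, and neither passed. AT2G01820 had 15.69, 15.71 and 15.67 in OBP4 roots, against 15.65, 15.65 and 15.64 in control roots. Differences near the scanner's ceiling may be compressed, which was not tested.

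A further pair of lower members lay in the dimmer part of the range. AT4G29450 had 7.92, 7.50 and 7.90 in OBP4 roots, against 9.53, 9.46 and 8.79 in control roots, and fell by 1.49 ± 0.24 (SE). AT1G49100 had 7.88, 8.27 and 8.01 in OBP4 roots, against 9.16, 9.07 and 9.72 in control roots, and fell by 1.26 ± 0.21 (SE). These were the 2 lower members that did not pass in every fit without 1 array. AT4G29450 passed in 3 of the 6 and AT1G49100 in 4, whereas the other 20 passed in all 6.

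Among the 22 lower members the most extreme array of each group was not the same throughout. The lowest OBP4 value was in replicate 1 at 10 members, in replicate 2 at 7 and in replicate 3 at 5. The highest control value was in replicate 3 at 13 members, in replicate 1 at 5 and in replicate 2 at 4. The nearest arrays of the groups were at least 1 apart at 15 of the 22. Without single arrays, 21 or 22 members were lower. The median SD over all 35 members was 0.20 in OBP4 roots and 0.16 in control roots, against 0.15 and 0.13 over all loci.

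The array annotation holds other leucine-rich repeat kinases under other wordings. Of 83 loci called leucine-rich repeat transmembrane protein kinase, 11 fell and 11 rose, and the median difference was 0.08. That is 13.3% in each direction, against 8.48% of all loci lower and 5.23% higher. Of 25 more loci that name both the repeat and a kinase, 2 fell (8%) and 3 rose (12%), with a median of 0.07. In the transmembrane class the furthest falls, picked after their values were seen, were at AT5G49770, AT1G64210 and AT5G24100. AT5G49770 had 9.89, 9.55 and 9.87 in OBP4 roots, against 11.95, 12.36 and 12.41 in control roots, and fell by 2.47 ± 0.17 (SE). AT1G64210 had 11.22, 11.21 and 11.27 in OBP4 roots, against 13.08, 13.02 and 13.08 in control roots, and fell by 1.83 ± 0.06 (SE). AT5G24100 fell by 1.27 ± 0.13 (SE). The furthest rises of the class, picked in the same way, were at XIP1, described below, and AT2G01210. AT2G01210 had 14.48, 14.63 and 14.29 in OBP4 roots, against 13.38, 13.36 and 13.57 in control roots, and rose by 1.03 ± 0.12 (SE). No test between these classes was made, because the members were selected on the same contrast.

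Of 40 receptors of the wider family with a known ligand or role, 6 rose (15%), 3 fell (7.5%) and 31 did not pass. The median was 0.10, and of all loci 5.23% were higher and 8.48% lower. HSL2, a receptor for IDA peptides, had 13.64, 13.90 and 13.80 in OBP4 roots, against 12.43, 12.41 and 12.37 in control roots. It rose by 1.37 ± 0.09 (SE), with limma's adjusted p = 0.000862. BRL1, a brassinosteroid receptor related to BRI1, rose by 1.18, and XIP1, also called CEPR1, a receptor for CEP peptides in nitrogen signalling, rose by 1.11. PSKR2, a phytosulfokine receptor, rose by 0.79. PXY, the receptor of the vascular peptide TDIF, had 12.38, 12.15 and 12.19 in OBP4 roots, against 12.60, 12.66 and 12.76 in control roots, and fell by 0.43 ± 0.09 (SE). Its relative PXL1 (AT1G08590) fell by 0.63, and PXL2 (AT4G28650) fell by 0.61. BRI1 itself had 15.45, 15.49 and 15.40 in OBP4 roots, against 15.43, 15.40 and 15.53 in control roots, and did not pass.

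Among 21 co-receptors and signalling partners, 4 rose (19%), 1 fell (4.76%) and 16 did not pass, with a median of 0.11. The shares of all loci were 5.23% higher and 8.48% lower. SERK2, a co-receptor of the SERK family, had 14.23, 14.21 and 14.35 in OBP4 roots, against 13.30, 13.15 and 13.22 in control roots, and rose by 1.04 ± 0.08 (SE). AT2G23950 rose by 0.93, SERK1 by 0.56 and NIK3 by 0.45. The mitogen-activated protein kinase gene MPK3 fell by 0.33. BAK1, the co-receptor shared by many of these receptors, did not pass, with a difference of -0.05. Of 10 CrRLK1L kinases, which carry malectin-like domains without leucine-rich repeats, 2 fell (20%) and 0 rose by limma. At limma's unadjusted p under 0.05, 3 were lower and 0 higher. ERU (AT5G61350), which acts in root hair tip growth, had 12.60, 12.13 and 12.02 in OBP4 roots, against 13.35, 13.20 and 13.34 in control roots, and fell by 1.05 ± 0.17 (SE). AT2G39360 fell by 0.49, and FER, the widely expressed member of that family, did not pass.

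Root hair markers were lower in the same arrays. Of 8 root hair markers 7 fell (87.5%) and 0 rose, against 8.48% of all loci lower and 5.23% higher. PRP3, at -0.21, did not pass. The list mean was 13.23 to 13.48 in OBP4 arrays and 14.23 to 14.31 in control arrays, with a list median difference of -0.73. RSL2, a bHLH regulator of root hair growth, had 10.04, 9.67 and 9.89 in OBP4 roots, against 11.83, 11.75 and 11.68 in control roots, and fell by 1.89 ± 0.11 (SE). Of 3 root cap markers 2 fell (66.7%), with a list mean of 11.96 to 12.16 in OBP4 arrays and 12.66 to 12.90 in control arrays. SMB, at -0.18, did not pass. The lowest OBP4 mean among the markers of these lists was 9.87, at RSL2, above the dim part of the range under 8. The part of root hair or root cap cells in the members' differences was not tested.

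**Figure D4:**
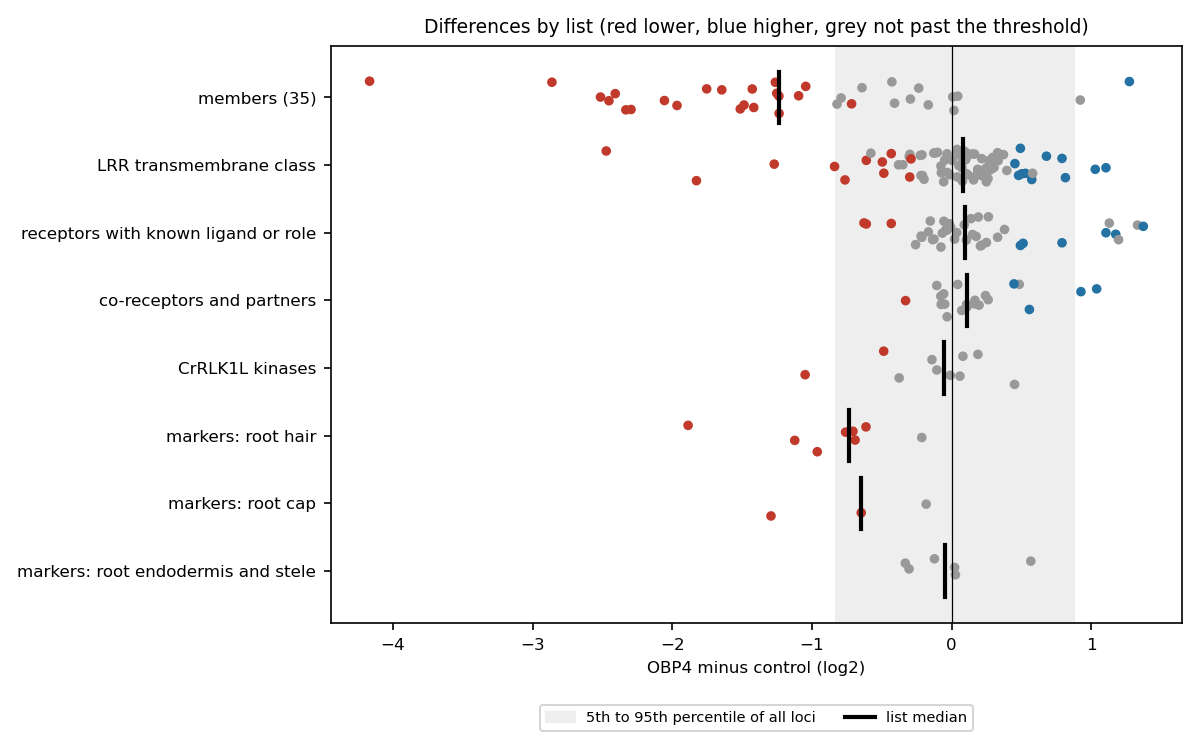
OBP4-minus-control differences (log2) of the members, the transmembrane class and the fixed lists; each point is 1 locus, black bars are list medians, and the grey band spans the 5th to 95th percentile of all loci (-0.83 to 0.87). The members' median lies at -1.24, that of the root hair markers at -0.73, and those of the receptor and co-receptor lists at 0.10 and 0.11.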

How the data were processed

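The authors deposited 1 table per array of log2 values, made by RMA per the file names, a method that removes background, normalizes the arrays jointly and combines the probes of a transcript. Which software made them, and the genome build of the annotation, is not given in the sources used. A second deposited table of log2 values, of unstated normalization, was used as an alternative source. Rows of a locus were averaged (37118 rows, 32627 loci, 31993 of them in the TAIR10.1 reference that gave symbols). One limma 3.58.1 model (lmFit, then eBayes; R 4.3.3) covered every locus. Its two-sided p-values were adjusted by Benjamini-Hochberg across the whole table, and 0.05 was the threshold. A difference is the OBP4 mean minus the control mean. No filter was applied. The number of probes behind each value is another deposited column, per the file headers. 3 arrays per group limit the precision, and arrays have no read depth. No 2 arrays held identical values, and 0 per-sample columns were left unused. The fit was tested on simulated data.

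The members and lists were chosen with earlier results of these data known. Named loci are members with a symbol on a fixed list, the 12 furthest changes in each direction past the threshold without overlap, the longest run of neighbours, and up to 4 loci per other list. Any others, including those named to account for all members, were chosen after their values were seen. The planned grouping of members by protein sequence was not made, since no sequences were used here. Of the lists' symbols, those the reference does not hold are replaced by their locus. The 9 malectin-type genes fixed by symbol included 6 members. Of the 9, 7 fell (77.8%), 1 rose (11.1%) and 1 did not pass, against 8.48% of all loci lower and 5.23% higher. For the 6 members these calls repeat those given above. Figures were drawn with matplotlib 3.10.9.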

Additional observations from a re-analysis of the deposited data

Results flagged for a closer look

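The deposited series-wide value table, which names the same 6 samples but was not used for the results above, had members called lower. Under its own labels 5 members were lower and 0 higher by limma with adjusted p under 0.05, against 2.38% of all loci lower (778) and 1034 loci higher, and 31 of 35 differences were negative, with a median of -0.49 against -0.02 over all loci. The 5 were AT1G49100, AT3G46400, AT5G16900, AT5G59650 and AT5G59660. Of the 22 members lower in the arrays 4 were lower here, and AT5G59650, at 0.02 in the arrays, was not among the 22. AT3G46400 had 9.01, 8.67 and 8.45 under the OBP4 labels, against 10.63, 10.65 and 10.85 under the control labels. OBP4 itself stood at 13.96 under the OBP4 labels and 13.95 under the control labels in that table. Per sample, deviations from the locus means correlated between the table and the array at -0.0792 to 0.214, so the table does not follow the arrays, and which RNA it holds was not tested.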

How the results depend on the processing

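The count of 22 lower members was 18 with the replicate block. IOS1 and RHS6 were among those then short of the threshold (limma's adjusted p = 0.051 and 0.0556). Only 19 members were followed singly in that fit. The others lost are therefore among AT1G49100, AT2G28990, AT3G46340, AT4G29450 and AT5G59660. Deviations of same-numbered arrays correlated at -0.20, 0.09 and -0.17. With 3 arrays per group, these values cannot show whether the replicate numbers pair the samples. Without the dimmest 50% of loci 14 of 17 members left were lower, fewer because fewer were tested. From the second deposited table the counts were 5 lower and 0 higher and the median difference -0.49; there AT1G05700 (1.23), AT1G51820 (0.37) and AT1G51805 (-0.20) changed sign, and the cause was not tested. AT1G51805 ranged from -0.26 (without OBP4 replicate 1) to 2.01 (without OBP4 replicate 2) when 1 array was left out. Leaving out 1 array gave 21 to 22 lower, 1 higher and a median of -1.29 to -1.17. Renewed quantile normalization, median centring, cyclic loess, trend and robust eBayes and array weights each gave 22 lower and 1 higher. So did leaving out the dimmest 25%. An adjusted p under 0.01 gave 20 lower. The brightest row per locus also gave 22 lower and 1 higher, but all 35 members have 1 row, so their values could not change. Signal under 8 limits the sizes, and signal near the ceiling may do so.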
